A study of Mus musculus with 21 samples.

Results

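The comparison covers the mouse libraries that lie on either side of embryonic genome activation. On the maternal side were 2 short-read libraries of unfertilised oocytes and 2 of 1-cell embryos, and on the cleavage side 2 libraries of 4-cell and 2 of 8-cell embryos, so that 8 of the 21 samples of the series, and 8 of its 14 short-read libraries, entered. The 2-cell libraries, which lie between the sides, were left out. Oocytes were labelled C57/BL6J. The embryos came from C57BL/6J females mated with males that the collection notes write as DBA/2N and the sample titles as DBA/2J. All females were 3 to 5 weeks old and had been superovulated with pregnant mare serum gonadotropin and human chorionic gonadotropin (hCG). Oocytes and embryos were isolated 20 h after hCG, oocytes were lysed at once, and embryos were cultured in KSOM medium until 24 to 26 h (1-cell), 54 to 58 h (4-cell) or 68 to 70 h (8-cell). Each library was made by the Smart-seq2 method from a pool of cells or embryos, and the libraries of a stage come from separate batches of pooled material.

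The mouse oocyte stops transcribing before ovulation and carries the mRNA that the first divisions need in a stored, often short-tailed form. After meiotic maturation and fertilisation this maternal mRNA is translated and removed in waves, with deadenylation by the CCR4-NOT complex as a central step. The embryo's own genome is transcribed weakly in the 1-cell embryo and strongly from the 2-cell stage, so 4-cell and 8-cell embryos hold mostly RNA of their own. The comparison addresses which genes, and which isoforms within a gene, differ in level between these states.

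Levels are given as TPM, which correct for transcript length and are scaled to the same total in every library, and were summed over the transcripts of a gene. Of the 22612 transcripts in the merged long-read annotation, 18333 shared a same-strand exon with a GENCODE vM21 gene (10917 genes, mm10) and 4279 lay at 3968 loci outside them. A gene or locus was tested when it reached 1 TPM in at least 2 of the libraries, which left 13098, namely 9763 annotated genes and 3335 unannotated loci. Over them the libraries of a side correlated at 0.842 to 0.930 (maternal) and 0.817 to 0.967 (cleavage) in log2(TPM + 1), and libraries of opposite sides at 0.216 to 0.390. Maternal libraries held fewer annotated and unannotated genes at 1 TPM or more (8173 to 9809 against 10892 to 11868), and their 10 most abundant transcripts took a larger share of the library (14.4% to 20.1% against 4.39% to 6.48%). The number of reads behind each value is unknown.

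Most genes differed between the sides, 9226 of 13098 (70.4%). On log2(TPM + 1), 6519 of the 13098 genes and loci (49.8%) were higher at cleavage and 2707 (20.7%) were lower at a Benjamini-Hochberg adjusted p under 0.05 in limma, so any group of genes has to be read against those shares. TPM are relative to the library total, and the median change over all tested genes was 1.17 on the log2 scale. With quantile normalisation, which gives every library the same distribution, that median was 0.21 and the calls were 4497 (34.3%) higher and 4107 (31.4%) lower. Of the 6519 genes called higher, 4493 (68.9%) stayed called higher with quantile normalisation and 232 (3.56%) had a change below 0. Of the 2707 called lower, 2706 stayed called and none turned. A fold change on the log2(TPM + 1) scale understates the change of genes with low values. In pooled material fewer cells and less RNA per cell cannot be told apart, nor, in cDNA primed from the poly(A) tail, can the amount of an mRNA and the length of its tail. The sides also differ in hours since hCG, time in culture and, for the oocytes, in cross, which cannot be told apart from stage.

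**Figure D1:**
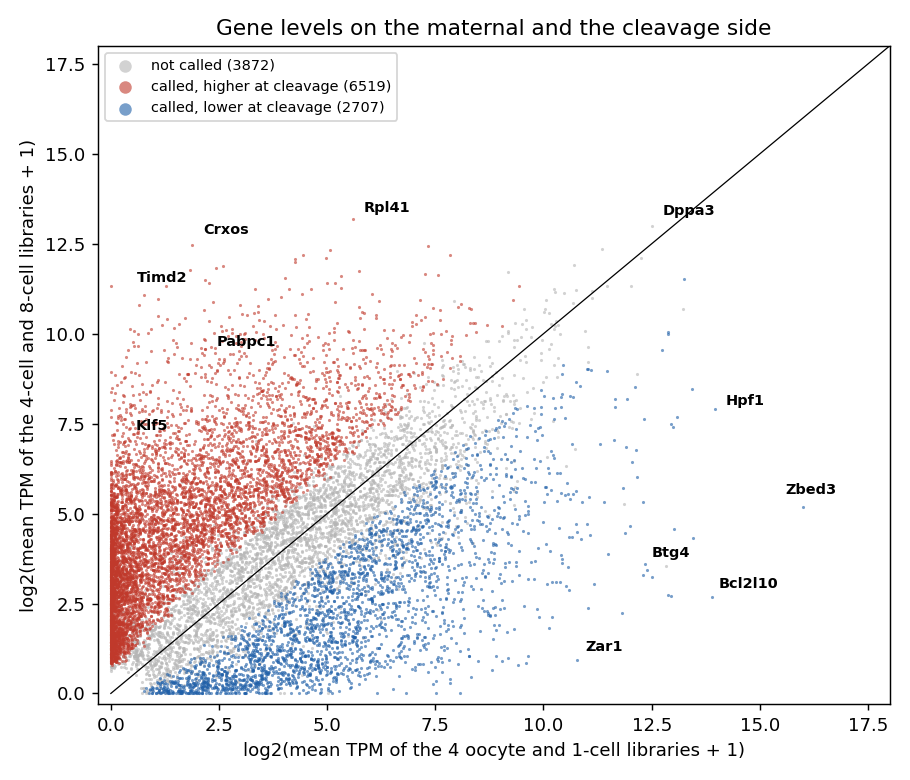
The log2 of mean TPM + 1 of each of the 13098 genes and loci over the 4 maternal libraries (x axis) and the 4 cleavage libraries (y axis), with the 6519 called higher, the 2707 called lower and the 3872 not called in separate colours. Dppa3 lies near the diagonal while Crxos, Timd2 and Rpl41 lie far above it and Bcl2l10, Zbed3, Btg4 and Zar1 far below.

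The called differences were large. Genes called higher had a median change of 2.83 log2 units (interquartile range 1.97 to 3.97) and went from a median of 1.06 TPM to 23.5 TPM. Genes called lower had a median change of 2.65 units in size (1.86 to 3.69) and went from a median of 38.4 TPM to 2.83 TPM. A change of at least 5 units was met by 765 of the higher and 256 of the lower genes. In 5937 (91.1%) of the higher and 2219 (82.0%) of the lower genes the 4 libraries of one side did not overlap with the 4 of the other, which over all genes held for 45.7% in the upward and 17.3% in the downward direction. Among the genes named hereafter as called, the sides did not overlap unless overlap is stated. Calls that held in all 20 other ways of running the comparison numbered 3249 (49.8% of the higher) and 1278 (47.2% of the lower). A gene that a setting did not test counts here as not held. The filter of 5 TPM in at least 4 libraries tested only 8986 genes and loci.

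Far fewer genes were called between the stages within a side. Each stage has 2 libraries, so these contrasts detect less than the one with 4 libraries a side. With stage as the term in a fit of the 8 libraries, 554 genes (4.23%) were higher and 48 (0.366%) lower at 1-cell than in oocytes, and 525 (4.01%) were higher and 1525 (11.6%) lower at 8-cell than at 4-cell. Quantile normalisation gave 382 and 91 for the first pair of stages and 856 and 785 for the second. These counts hung on single libraries. Without 1-cell replicate 1 limma called 0 genes higher (1308 at an unadjusted p under 0.05) and 1 lower, without 1-cell replicate 2 it called 160 and 7, without oocyte replicate 1 951 and 135, and without oocyte replicate 2 592 and 147. The genes lower at 8-cell numbered 576 and 413 without 4-cell replicate 1 or 2 and 700 without 8-cell replicate 2, and those higher numbered 236 and 194 without 4-cell replicate 1 or 2.

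Among annotated genes that fell, the largest drops were led by Bcl2l10, Zbed3 and D6Ertd527e, and the 10 largest ran from -11.53 to -9.42 on the log2 scale. Bcl2l10 (chr9:75347758-75351632), a BCL2 family regulator of apoptosis abundant in oocytes, had 16455 and 22401 TPM in the oocyte libraries, 16658 and 4955 at 1-cell, 10.6 and 9.23 at 4-cell and 0.365 and 1.44 at 8-cell (log2 change -11.53 ± 0.78, adjusted p = 2.1e-06). Zbed3 (chr13:95323612-95337841), a component of the subcortical maternal complex, had 24172 and 64679.9 TPM in the oocyte libraries, 42130.4 and 132356 at 1-cell, 78.0 and 44.9 at 4-cell and 3.53 and 15.6 at 8-cell (log2 change -11.22 ± 0.87, adjusted p = 3.6e-06). H1foo (chr6:115944938-115950236), the linker histone of the oocyte, had 12322 and 12737 TPM in the oocyte libraries, 3542 and 1401 at 1-cell, 7.85 and 10.8 at 4-cell and 2.50 and 1.40 at 8-cell (log2 change -9.92 ± 0.81, adjusted p = 4.5e-06). In each of these the 4-cell libraries lay above the 8-cell libraries.

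Btg4 (chr9:51060901-51119875), the adaptor that brings the CCR4-NOT deadenylase to maternal mRNA, had 3528 and 9909.6 TPM in the oocyte libraries, 5865 and 1441 at 1-cell, 19.4 and 23.9 at 4-cell and 0.524 and 0.530 at 8-cell (log2 change -9.46 ± 1.04, adjusted p = 2.6e-05). Zar1 (chr5:72576806-72581254), an RNA-binding protein needed for the first divisions, had 946 and 4016 TPM in the oocyte libraries, 477 and 1534 at 1-cell, 1.85 and 1.03 at 4-cell and 0.300 and 0.369 at 8-cell (log2 change -9.50 ± 0.65, adjusted p = 2.2e-06). Tcl1, a co-activator of AKT kinases, went from between 4359.8 and 19019 TPM to between 3.39 and 38.1 TPM at cleavage (log2 change -9.44 ± 0.85, adjusted p = 7.8e-06). The other 4 of the 10 largest falls were D6Ertd527e, Ccdc69, E330021D16Rik and E330034G19Rik, with log2 changes of -10.66, -9.89, -9.56 and -9.42. The 10 were chosen among called genes whose maternal and cleavage libraries do not overlap, so their lack of overlap is no result.

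Falls of the most abundant maternal genes were not all complete. Hpf1, a cofactor of PARP1 in ADP-ribosylation, had 14025 and 12055 TPM in the oocyte libraries, 11004 and 26389 at 1-cell, 257 and 137 at 4-cell and 278 and 283 at 8-cell (log2 change -6.01 ± 0.44, adjusted p = 2.8e-06). Slbp, the protein that binds the stem-loop of histone mRNA, had 6286 and 21095 TPM in the oocyte libraries, 11994 and 5180.5 at 1-cell, 509 and 421 at 4-cell and 226 and 263 at 8-cell (log2 change -4.82 ± 0.53, adjusted p = 2.6e-05). Both stayed at 137 TPM or more in every cleavage library, whereas Bcl2l10 had at most 10.6 TPM.

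**Figure D2:**
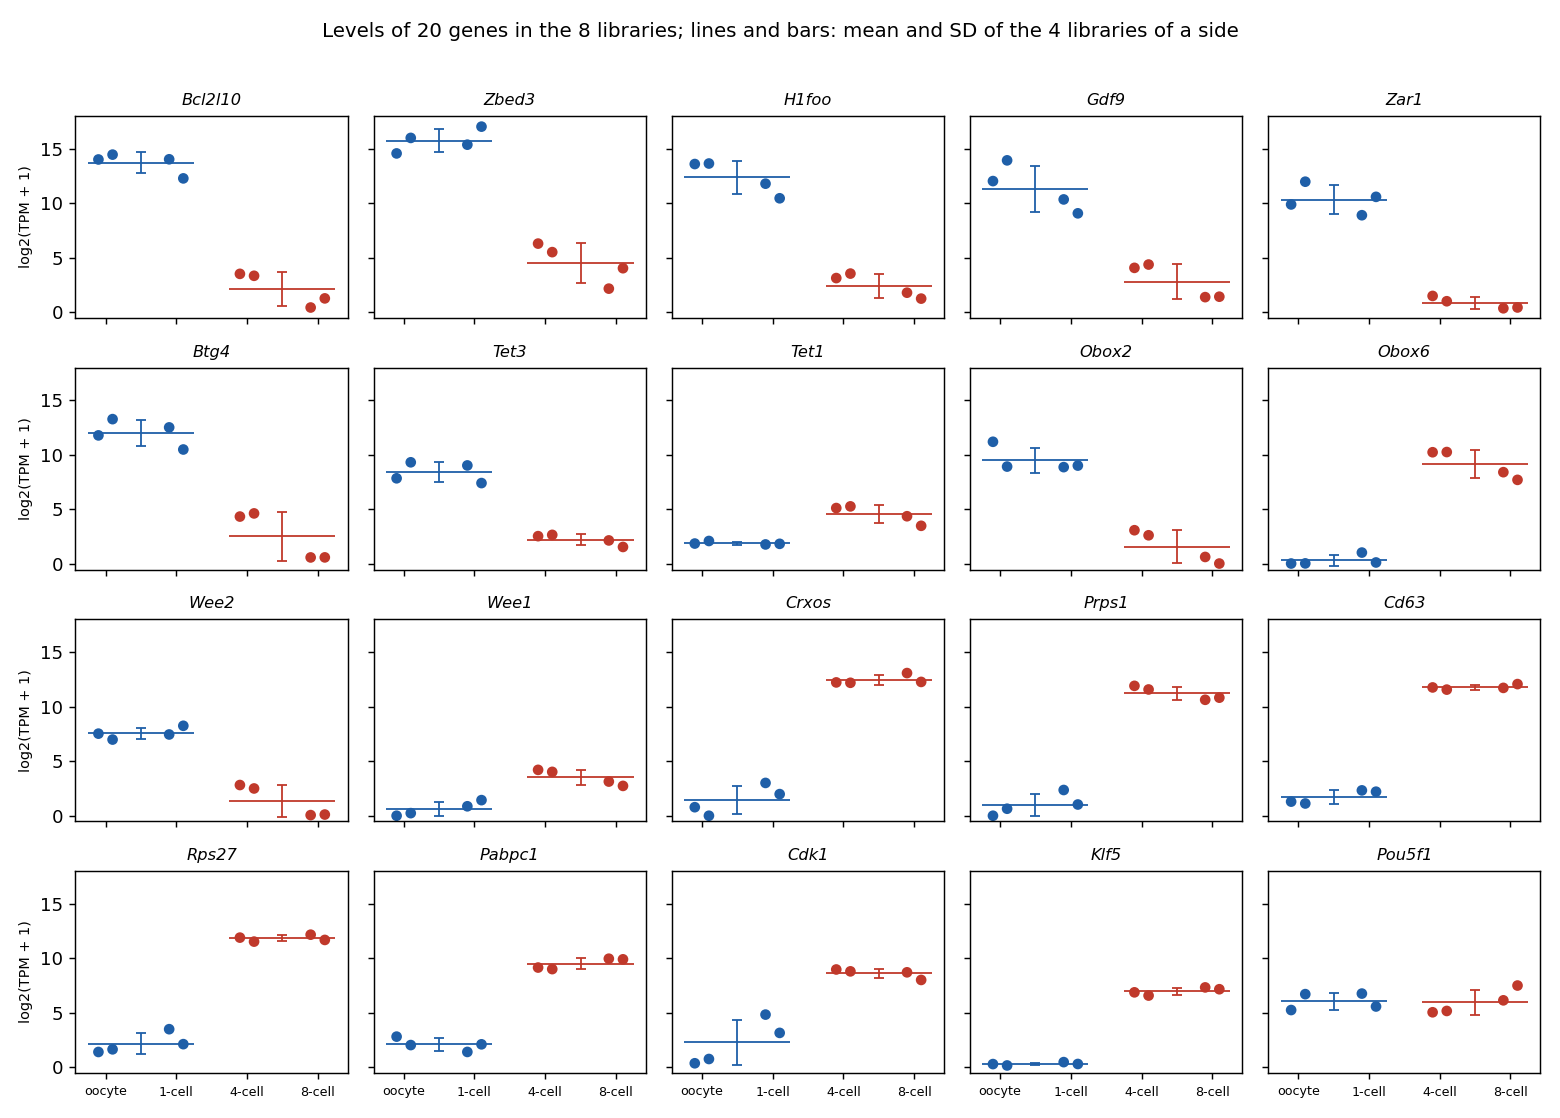
Level on the log2(TPM + 1) scale (y axis) of 20 genes in the 4 maternal and 4 cleavage libraries. Points are libraries, and lines and bars are the mean and SD of the 4 libraries of a side. Bcl2l10, Zbed3, Btg4 and Tet3 drop while Crxos, Prps1, Rps27 and Klf5 climb, and the points of Pou5f1 overlap between sides.

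Structural and identity genes of the oocyte fell as a group. The subcortical maternal complex sits beneath the membrane of the oocyte and early blastomeres, and the NLRP genes listed with it are oocyte-specific. Of these 15 genes 13 were lower at cleavage and 0 higher in limma (0 higher also at an unadjusted p under 0.05), against 20.7% and 49.8% of all genes, with a median change of -4.72, or -5.90 relative to the median of all genes. Nlrp4a had 2551 and 579.8 TPM in the oocyte libraries, 598 and 1693 at 1-cell, 27.2 and 25.1 at 4-cell and 0.504 and 0.625 at 8-cell (log2 change -7.41 ± 1.06, adjusted p = 0.00014). Ooep, a core component of the complex, went from between 50.5 and 635 TPM to between 4.25 and 14.0 TPM at cleavage (log2 change -4.77 ± 0.80, adjusted p = 0.0004). Nlrp5, also known as Mater, went from between 54.2 and 515 TPM to between 1.51 and 23.7 TPM (log2 change -3.97 ± 0.99, adjusted p = 0.00468), and its call was lost without the 1-cell or without the 8-cell libraries (highest adjusted p = 0.0809).

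Padi6, an oocyte peptidylarginine deiminase, had 29.9 and 47.3 TPM in the oocyte libraries, 26.0 and 35.0 at 1-cell, 26.3 and 30.5 at 4-cell and 23.2 and 22.5 at 8-cell (log2 change -0.39 ± 0.40, adjusted p = 0.396, -1.27 with quantile normalisation, where it was called lower). Khdc3, also known as Filia, had 458 and 14.2 TPM in the oocyte libraries, 43.1 and 81.6 at 1-cell, 188 and 61.5 at 4-cell and 1023 and 2119.7 at 8-cell (log2 change 2.49 ± 1.23, adjusted p = 0.0922). The 8-cell libraries were the highest for Khdc3, whose locus overlaps another gene, and the 4-cell libraries overlapped with the maternal ones. Without 4-cell replicate 2, both 4-cell libraries or oocyte replicate 1, and in the fit of 12 libraries, Khdc3 was called higher.

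The zona pellucida is the glycoprotein coat that the growing oocyte secretes. Of 14 zona and oocyte growth or identity genes 12 were tested, of which 11 were lower and 0 higher in limma (0 higher also unadjusted). Over all genes 20.7% were lower and 49.8% higher. The median change was -4.14 (-5.31 relative to all genes). Gdf9, an oocyte growth factor that signals to the granulosa cells, had 4176 and 15568 TPM in the oocyte libraries, 1302 and 538 at 1-cell, 15.9 and 19.9 at 4-cell and 1.64 and 1.71 at 8-cell (log2 change -8.52 ± 1.08, adjusted p = 6.5e-05). Its partner Bmp15 had 141 and 159.9 TPM in the oocyte libraries, 386 and 1005 at 1-cell, 7.17 and 5.92 at 4-cell and 0.502 and 0.380 at 8-cell (log2 change -6.54 ± 0.81, adjusted p = 5.9e-05). The coat genes themselves had smaller maternal levels than Gdf9. Zp2 had 26.0 and 11.2 TPM in the oocyte libraries, 28.3 and 23.3 at 1-cell, 7.42 and 9.06 at 4-cell and 2.39 and 1.22 at 8-cell (log2 change -2.13 ± 0.57, adjusted p = 0.00705), a call lost without the 1-cell or the 8-cell libraries (highest adjusted p = 0.07). Zp3 had 51.7 and 102 TPM in the oocyte libraries, 168 and 34.1 at 1-cell, 52.2 and 71.8 at 4-cell and 9.96 and 7.66 at 8-cell (log2 change -1.61 ± 0.80, adjusted p = 0.0931), with the 4-cell libraries inside the maternal range, and was called lower without 4-cell replicate 2 or both 4-cell libraries, with quantile normalisation and with stage as the term, over 8 or 12 libraries.

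Among the members that were lower, Lhx8 went from between 26.5 and 164 TPM to between 0.547 and 2.01 TPM at cleavage (log2 change -5.50), Nobox from between 6.39 and 45.1 to between 0 and 1.00 TPM (-3.62) and Sohlh2 from between 17.5 and 98.8 to between 0 and 2.58 TPM (-4.66). Of the 6 Oogenesin genes tested of 9, 4 were lower, 1 was higher and 1 was not called. The shares over all genes were 20.7% lower and 49.8% higher. Oog3 had 1881 and 636 TPM in the oocyte libraries, 2293 and 1729 at 1-cell, 94.6 and 85.6 at 4-cell and 0.668 and 0.307 at 8-cell (log2 change -6.99 ± 1.40, adjusted p = 0.00122), and its near-identical copies make the split among the family uncertain. Pramef25, of the same PRAME-like family, went the other way, with 0 TPM in the oocyte libraries, 0.104 and 0.0609 at 1-cell, 6.15 and 3.59 at 4-cell and 5.15 and 2.71 at 8-cell (log2 change 2.33 ± 0.29, adjusted p = 5.9e-05).

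Genes of the meiotic spindle and the metaphase arrest changed in both directions. Of 32 tested of 33 kinases, spindle and anaphase regulators 11 were lower, 8 were higher and 13 were not called. Over all genes 20.7% were lower and 49.8% higher. The median of -0.24 (-1.41 relative to all genes) ranged from -0.78 to 0.05 over the other ways of running the comparison. Wee2, the oocyte form of the kinase that inhibits CDK1, had 182 and 125 TPM in the oocyte libraries, 173 and 301 at 1-cell, 6.03 and 4.65 at 4-cell and 0.0413 and 0.0792 at 8-cell (log2 change -6.17 ± 0.70, adjusted p = 3.4e-05). Wee1, its somatic counterpart, had 0 and 0.180 TPM in the oocyte libraries, 0.823 and 1.70 at 1-cell, 17.4 and 15.2 at 4-cell and 7.75 and 5.65 at 8-cell (log2 change 2.89 ± 0.47, adjusted p = 0.00032). Wee2 was thus higher in every maternal library than in any cleavage library, and Wee1 the reverse. Fbxo43, also known as Emi2, the inhibitor of the anaphase-promoting complex that holds the oocyte in metaphase, had 88.4 and 215 TPM in the oocyte libraries, 102 and 102 at 1-cell, 2.96 and 3.77 at 4-cell and 0 and 0.173 at 8-cell (log2 change -5.79 ± 0.61, adjusted p = 2.1e-05).

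Mos, the kinase upstream of the metaphase arrest, was low already at 1-cell. It had 89.9 and 543 TPM in the oocyte libraries, 8.99 and 2.43 at 1-cell, 2.67 and 3.41 at 4-cell and 0.113 and 0.371 at 8-cell (log2 change -4.02 ± 1.35, adjusted p = 0.0209). The 1-cell libraries overlapped with the 4-cell libraries, and so the sides overlapped, and the call was lost without oocyte replicate 1 (adjusted p = 0.0575), without either 8-cell library (0.0560 and 0.0569), with array weights (0.0805) and without the oocyte, 4-cell or 8-cell libraries altogether (highest adjusted p = 0.209).

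Cdk1 and its cyclins were not called alike. Cdk1, the mitotic kinase, had 0.300 and 0.704 TPM in the oocyte libraries, 27.5 and 7.94 at 1-cell, 499 and 443 at 4-cell and 417 and 257 at 8-cell (log2 change 6.33 ± 0.90, adjusted p = 0.00013). Its activating cyclin Ccnb1 had 532 and 373 TPM in the oocyte libraries, 1079.5 and 874 at 1-cell, 1441 and 1193 at 4-cell and 659 and 571 at 8-cell (log2 change 0.45 ± 0.50, adjusted p = 0.438), with the sides overlapping. Its other cyclin Ccnb2 went from between 289.9 and 559.6 TPM to between 120.4 and 181 TPM at cleavage and fell (log2 change -1.37 ± 0.41, adjusted p = 0.0127). Aurora kinases were called in opposite directions. Aurkc, the form of germ cells and early embryos, had 229.8 and 129 TPM in the oocyte libraries, 339 and 147 at 1-cell, 70.3 and 63.1 at 4-cell and 37.8 and 35.8 at 8-cell (log2 change -1.97 ± 0.48, adjusted p = 0.00429), and Aurkb, the form of somatic mitosis, had 2.26 and 2.07 TPM in the oocyte libraries, 11.05 and 2.68 at 1-cell, 75.8 and 81.6 at 4-cell and 24.1 and 32.2 at 8-cell (log2 change 3.39 ± 0.60, adjusted p = 0.00059). Cdc25c, the phosphatase that opposes WEE kinases, went from between 0.321 and 1.95 TPM to between 20.2 and 103 TPM (log2 change 4.70 ± 0.60, adjusted p = 6.6e-05).

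Factors that store, polyadenylate and translate maternal mRNA leaned to the maternal side. Of 29 tested of 33 genes 14 were lower, 8 were higher and 7 were not called, against 20.7% lower and 49.8% higher over all genes. The median was -1.64 (-2.81 relative to all genes). Pabpn1l, the poly(A)-binding protein of the oocyte that recruits BTG4, had 862 and 1226 TPM in the oocyte libraries, 488 and 158 at 1-cell, 0.898 and 2.00 at 4-cell and 0 and 0.0821 at 8-cell (log2 change -8.41 ± 0.68, adjusted p = 4.3e-06). Pabpc1, the general cytoplasmic poly(A)-binding protein, had 6.05 and 3.13 TPM in the oocyte libraries, 1.67 and 3.33 at 1-cell, 565 and 512 at 4-cell and 991 and 953 at 8-cell (log2 change 7.40 ± 0.47, adjusted p = 1.8e-06). Pabpn1l was the more abundant of them in each maternal library and Pabpc1 in each cleavage library.

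Dazl, a translational regulator of germ cells, went from between 166 and 1423 TPM to between 1.26 and 4.15 TPM at cleavage (log2 change -7.19 ± 0.67, adjusted p = 9.5e-06). Cpeb1, which binds the cytoplasmic polyadenylation element, went from between 33.9 and 384 TPM to between 1.25 and 6.40 TPM (log2 change -5.04 ± 0.72, adjusted p = 0.00014). Eif4e1b, the oocyte form of the cap-binding protein, fell from between 19.2 and 219 TPM to between 1.92 and 2.92 TPM (log2 change -4.05 ± 0.71, adjusted p = 0.00054), while the general form Eif4e rose from between 62.7 and 285 TPM to between 282 and 1020.2 TPM (log2 change 2.07 ± 0.62, adjusted p = 0.0119), with 1 maternal library at 285 TPM above 1 cleavage library at 282 TPM and the call lost without the oocyte or the 4-cell libraries (highest adjusted p = 0.139). Igf2bp1, an mRNA-binding protein, rose from at most 0.287 TPM on the maternal side to between 8.17 and 44.3 TPM (log2 change 3.96 ± 0.49, adjusted p = 5.6e-05). Ybx1, Ybx3, Igf2bp2, Igf2bp3, Papolg, Cpeb3 and Cpeb4 were not called.

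The decay machinery was split within its main complex. Of 26 tested of 30 decay factors 11 were lower, 9 were higher and 6 were not called. Over all genes 20.7% were lower and 49.8% higher. The median of 0.25 (-0.92 relative to all genes) turned to -0.57 with quantile normalisation. Cnot7, a catalytic deadenylase of CCR4-NOT, had 783 and 777 TPM in the oocyte libraries, 772 and 1207 at 1-cell, 150.0 and 72.2 at 4-cell and 62.3 and 77.0 at 8-cell (log2 change -3.34 ± 0.44, adjusted p = 8.5e-05). Cnot1, the scaffold of the same complex, had 0.749 and 0.227 TPM in the oocyte libraries, 2.08 and 1.90 at 1-cell, 82.2 and 81.2 at 4-cell and 55.9 and 44.0 at 8-cell (log2 change 4.95 ± 0.46, adjusted p = 9.3e-06). Cnot3, Cnot6l and Cnot11 were lower with Cnot7 (log2 changes -3.58, -2.87 and -2.98), and Cnot9 and Cnot10 were higher with Cnot1 (2.64 and 3.74). The decapping factors Dcp1a and Dcp2 were higher on the maternal side, with Dcp1a going from between 137 and 2041 TPM to between 8.17 and 15.6 TPM (log2 change -5.51 ± 0.73, adjusted p = 8.4e-05) and Dcp2 from between 43.7 and 232 to between 5.02 and 13.3 TPM (log2 change -3.48 ± 0.61, adjusted p = 0.00051). The uridylyltransferases Tut4 and Tut7, which tag short-tailed mRNA, were higher at cleavage (2.79 and 2.44), as was the exonuclease Dis3 (3.79).

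Of 17 tested of 19 genes of DNA methylation and maternal chromatin protection 5 were lower, 5 were higher and 7 were not called. Over all genes 20.7% were lower and 49.8% higher. The median was 0.99 (-0.18 relative to all genes). The TET dioxygenases, which oxidise 5-methylcytosine, changed places. Tet3, the form that acts in the zygote, had 231 and 639 TPM in the oocyte libraries, 523 and 170.1 at 1-cell, 4.89 and 5.39 at 4-cell and 3.49 and 1.96 at 8-cell (log2 change -6.17 ± 0.55, adjusted p = 7.2e-06). Tet1 had 2.68 and 3.33 TPM in the oocyte libraries, 2.48 and 2.62 at 1-cell, 34.0 and 38.0 at 4-cell and 19.8 and 10.4 at 8-cell (log2 change 2.66 ± 0.47, adjusted p = 0.00055). Tet2 had 1.26 and 0.744 TPM in the oocyte libraries, 0.977 and 0.652 at 1-cell, 4.17 and 8.06 at 4-cell and 108 and 21.5 at 8-cell (log2 change 3.28 ± 0.80, adjusted p = 0.00413), with 8-cell replicate 1 far above the rest, and its call was lost with quantile normalisation (adjusted p = 0.0867). Each maternal library held more Tet3 than Tet1, and each cleavage library more Tet1 than Tet3.

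The members of the DNA methylation list that were lower included Uhrf1, Dnmt1 and Zfp57. Uhrf1, which guides DNMT1 to hemimethylated DNA, went from between 66.0 and 1091 TPM to between 6.08 and 15.2 TPM at cleavage (log2 change -4.62 ± 0.78, adjusted p = 0.00043). Dnmt1 had 59.8 and 39.6 TPM in the oocyte libraries, 231 and 159.6 at 1-cell, 22.5 and 25.8 at 4-cell and 10.7 and 14.8 at 8-cell (log2 change -2.41 ± 0.62, adjusted p = 0.00554), a call lost without the 8-cell libraries (adjusted p = 0.0755). Zfp57, the zinc finger protein that protects imprinted methylation, had 300.5 and 691 TPM in the oocyte libraries, 9859 and 5473 at 1-cell, 36.2 and 37.4 at 4-cell and 9.39 and 14.0 at 8-cell (log2 change -6.40 ± 1.05, adjusted p = 0.00034). Both 1-cell libraries lay above both oocyte libraries. Dppa3, also known as Stella, was among the 5 most abundant genes at cleavage without a called change. It had 12586 and 3851 TPM in the oocyte libraries, 4258 and 2668 at 1-cell, 8192 and 9783 at 4-cell and 7471 and 7040.1 at 8-cell (log2 change 0.73 ± 0.48, adjusted p = 0.193), and was called higher with quantile normalisation (2.01) and without oocyte replicate 1 or both oocyte libraries. Dnmt3a, Dnmt3b and Dnmt3l, the de novo enzymes and their cofactor, were not called.

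Histone variants and chaperones were called in both directions, at shares near those of all genes. Of 27 members 13 were higher, 5 were lower and 9 were not called, against 49.8% higher and 20.7% lower over all genes. The median of 1.15 (-0.02 relative to all genes) turned to -0.10 with quantile normalisation. Against the drop of H1foo, H2afz, which encodes the H2A.Z variant, had 56.6 and 98.9 TPM in the oocyte libraries, 94.1 and 39.3 at 1-cell, 1349 and 1505 at 4-cell and 2271 and 2544 at 8-cell (log2 change 4.76 ± 0.47, adjusted p = 1.3e-05). Set, a histone chaperone and phosphatase inhibitor, had 5.22 and 2.59 TPM in the oocyte libraries, 10.1 and 3.53 at 1-cell, 1153 and 1516 at 4-cell and 1110.3 and 642 at 8-cell (log2 change 7.51 ± 0.50, adjusted p = 2e-06). Asf1a, the H3-H4 chaperone, went the other way, from between 1197 and 5829 TPM to between 56.2 and 168 TPM (log2 change -4.43 ± 0.60, adjusted p = 0.0001). H3f3a and H3f3b encode the same H3.3 protein. H3f3a rose from between 118 and 379 TPM to between 792 and 1195 TPM (log2 change 2.18 ± 0.47, adjusted p = 0.0019) and H3f3b fell from between 4094 and 16014 TPM to between 1791 and 3886 TPM (log2 change -1.65 ± 0.49, adjusted p = 0.012, -0.80 with adjusted p = 0.229 under quantile normalisation). In every library H3f3b had the higher TPM of the pair.

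Rises were led by genes that were nearly absent before activation. Crxos (chr7:15882617-15904020), a homeobox gene, had 0.721 and 0 TPM in the oocyte libraries, 7.03 and 2.95 at 1-cell, 4738 and 4625 at 4-cell and 8572 and 4888 at 8-cell (log2 change 10.98 ± 0.65, adjusted p = 1.5e-06). Prps1 (chrX:140456613-140476140), which makes the ribose donor of nucleotide synthesis, had 0 and 0.561 TPM in the oocyte libraries, 4.12 and 1.04 at 1-cell, 3808 and 3026 at 4-cell and 1571 and 1798 at 8-cell (log2 change 10.22 ± 0.58, adjusted p = 1.3e-06). Cd63 (chr10:128900989-128912822), a tetraspanin of late endosomes, had 1.45 and 1.18 TPM in the oocyte libraries, 4.00 and 3.60 at 1-cell, 3443 and 2999 at 4-cell and 3347 and 4258 at 8-cell (log2 change 10.03 ± 0.45, adjusted p = 1.1e-06). None of these exceeded 7.03 TPM in a maternal library, and none was below 1571 TPM in a cleavage library.

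The metallothioneins Mt1 and Mt2, which bind zinc and copper, rose from between 2.11 and 10.2 to between 3226 and 4138 TPM and from between 0 and 10.6 to between 2435 and 3282 TPM (log2 changes 9.50 and 9.75). Timd2, a receptor of the TIM family, rose from between 0 and 1.51 to between 1822 and 2673 TPM (log2 change 10.41 ± 0.47, adjusted p = 1.1e-06), and Alppl2, an alkaline phosphatase of embryos and germ cells, from between 0 and 2.28 to between 1042 and 1984 TPM (log2 change 9.53 ± 0.51, adjusted p = 1.1e-06). Rps27, a ribosomal protein, had 1.66 and 2.15 TPM in the oocyte libraries, 10.3 and 3.37 at 1-cell, 3784 and 2936 at 4-cell and 4558 and 3266 at 8-cell (log2 change 9.63 ± 0.53, adjusted p = 1.2e-06). The remaining 2 of the 10 largest rises, Gm5612 and Gm12616, are annotated as pseudogenes, and reads that also match the parent gene cannot be told apart from theirs. None of the 10 exceeded 10.6 TPM in any maternal library.

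The most abundant genes of the cleavage libraries, besides Crxos and Dppa3, were Rpl41, Hist1h2ao and Eif5a. Rpl41 had 78.7 and 24.6 TPM in the oocyte libraries, 61.5 and 24.1 at 1-cell, 7669.8 and 9599 at 4-cell and 9522 and 10374 at 8-cell (log2 change 7.77 ± 0.49, adjusted p = 1.6e-06). Hist1h2ao, 1 of several near-identical H2A genes, had 491 and 22.9 TPM in the oocyte libraries, 52.3 and 73.1 at 1-cell, 4935 and 3083 at 4-cell and 6144 and 8097 at 8-cell (log2 change 5.99 ± 0.82, adjusted p = 0.0001), and the assignment among these copies is uncertain. Eif5a, a translation factor, had 1909 and 4092 TPM in the oocyte libraries, 1880.4 and 2548 at 1-cell, 4445 and 2429 at 4-cell and 3780.1 and 10100.2 at 8-cell (log2 change 0.87 ± 0.50, adjusted p = 0.141, called higher with quantile normalisation).

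All 79 cytosolic ribosomal protein genes were higher at cleavage, against 49.8% of all genes, and the same 79 of 79 were called with quantile normalisation. Their changes ran from 2.74 to 9.63, with a median of 6.76 (5.59 relative to all genes), and no member overlapped between the sides. Summed over the list they made up 1047 to 2519 TPM in the maternal libraries and 76149 to 135214 TPM at cleavage. Rps3 had 1.95 and 0.821 TPM in the oocyte libraries, 3.65 and 2.80 at 1-cell, 1084 and 1211 at 4-cell and 1818 and 1459 at 8-cell (log2 change 8.77 ± 0.46, adjusted p = 1.1e-06). Rpl15 had the smallest change, from between 10.3 and 34.6 TPM to between 98.7 and 198 TPM (log2 change 2.74 ± 0.51, adjusted p = 0.00075).

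**Figure D3:**
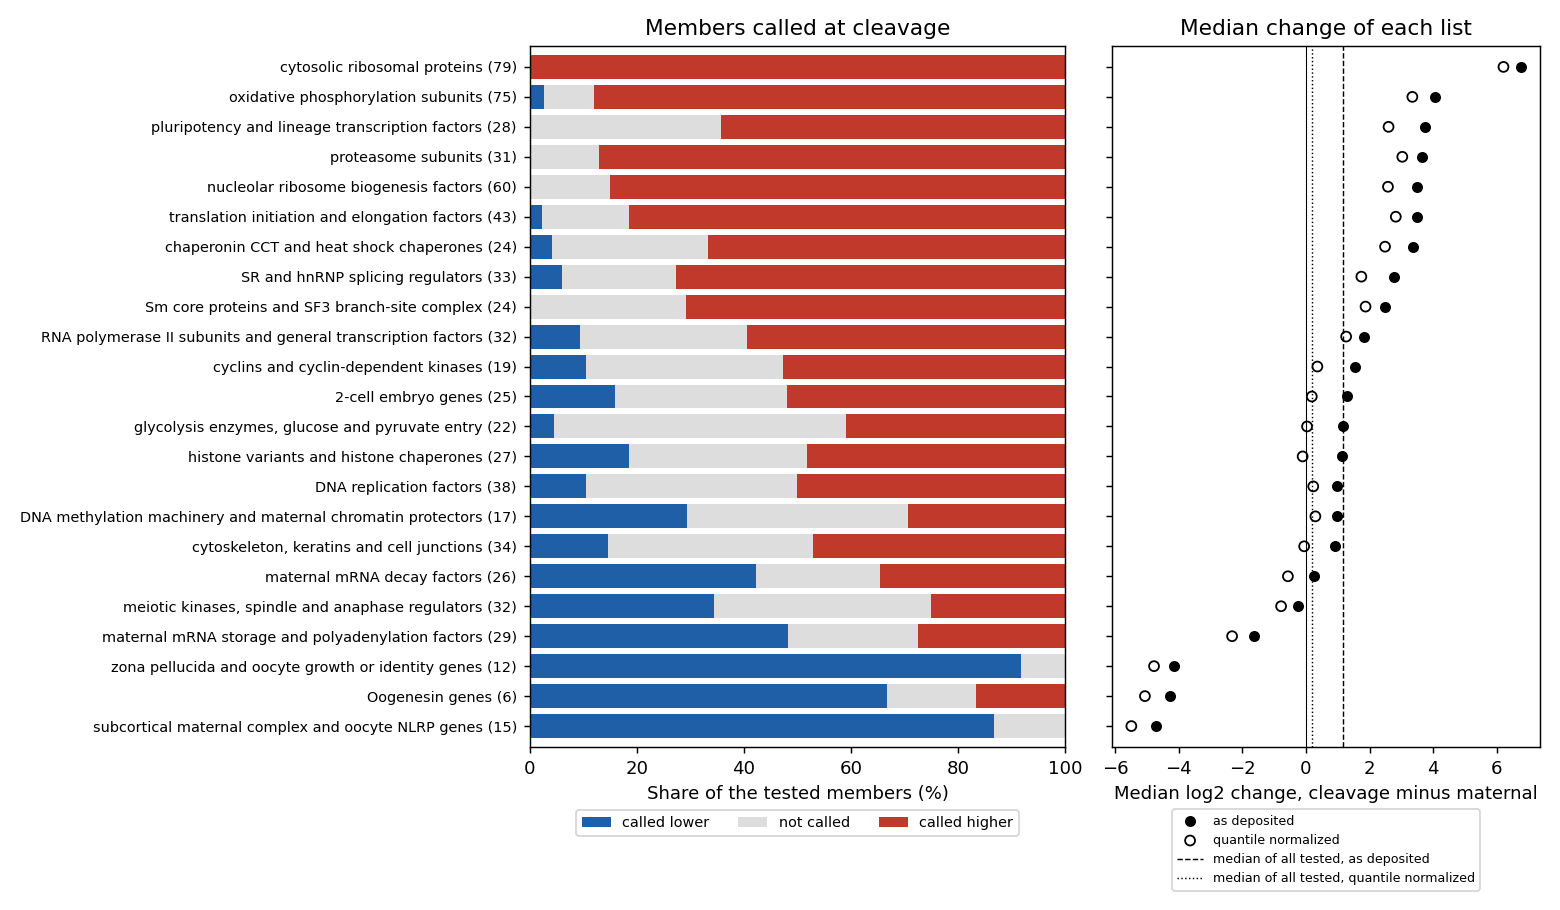
For each of 23 gene lists, the share of tested members called higher and lower at cleavage (left, percent of members), and the median log2 change of the list as deposited and after quantile normalisation (right). Ribosomal protein genes lie farthest to the right at 6.76 and 6.21, and the subcortical maternal complex, Oogenesin and zona lists farthest to the left.

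Other parts of protein production and turnover were higher as well. Of 60 nucleolar ribosome biogenesis factors 51 were higher and 0 lower in limma (0 lower also unadjusted), with a median of 3.49. Over all genes 49.8% were higher and 20.7% lower. Nhp2, a subunit of the pseudouridylation complex, had 0.843 and 2.31 TPM in the oocyte libraries, 28.1 and 4.17 at 1-cell, 936 and 1178 at 4-cell and 1795 and 2163 at 8-cell (log2 change 8.03 ± 0.78, adjusted p = 1.3e-05), and Nop16 went from between 0.105 and 1.21 TPM to between 95.7 and 216 TPM (log2 change 6.57 ± 0.45, adjusted p = 2.1e-06). Of 43 translation initiation and elongation factors 35 were higher and 1 lower, with a median of 3.48. Eef1g rose from between 0.406 and 3.32 to between 176 and 419 TPM and Eif3g from between 1.79 and 10.7 to between 409 and 687 TPM (log2 changes 6.87 and 6.76). Eif2b1, a subunit of the exchange factor for EIF2, fell from between 505 and 1665 TPM to between 280.5 and 405 TPM (log2 change -1.40 ± 0.47, adjusted p = 0.0202), and its call was lost without either 8-cell library (adjusted p = 0.0510 and 0.0559), without both (0.123) and without the oocyte libraries (0.112, log2 change -0.83).

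Of 31 proteasome subunits 27 were higher and 0 lower (0 lower also unadjusted), against 49.8% and 20.7% of all genes. The median was 3.65, and the same count was called with quantile normalisation. Psmd14, the deubiquitinase of the lid, had 1.93 and 2.197 TPM in the oocyte libraries, 4.59 and 1.41 at 1-cell, 415 and 404 at 4-cell and 366 and 315 at 8-cell (log2 change 6.80 ± 0.43, adjusted p = 1.6e-06). Psma7, Psmd1, Psmd2 and Psmd3 were not called. Of 24 tested of 25 chaperones 16 were higher and 1 lower, with a median of 3.36. Hspa8, the constitutive HSP70, had 7.24 and 17.0 TPM in the oocyte libraries, 65.5 and 31.7 at 1-cell, 2274 and 1724 at 4-cell and 5355 and 8346 at 8-cell (log2 change 7.25 ± 0.73, adjusted p = 1.6e-05), and Cct6a, a chaperonin subunit, went from between 0.306 and 0.652 TPM to between 182 and 351 TPM (log2 change 7.45 ± 0.40, adjusted p = 1.2e-06). Hsf1, the heat shock transcription factor that oocytes store, fell from between 80.8 and 219 TPM to between 13.9 and 36.1 TPM (log2 change -2.25 ± 0.49, adjusted p = 0.00208).

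Splicing genes were mostly higher. Of 24 tested of 25 Sm core and SF3 genes 17 were higher and 0 lower (0 lower also unadjusted), against 49.8% and 20.7% of all genes. Their median was 2.50 (1.33 relative to all genes). With quantile normalisation 14 were higher, against 34.3% of all genes, and the other ways of running the comparison gave 13 to 18. Of 33 tested of 34 SR and hnRNP regulators 24 were higher and 2 lower (22 and 2 with quantile normalisation). Their median was 2.75 (1.58 relative to all genes). Snrpb, a core Sm protein, had 0.769 and 3.11 TPM in the oocyte libraries, 3.52 and 2.45 at 1-cell, 307 and 341 at 4-cell and 544 and 682 at 8-cell (log2 change 7.09 ± 0.49, adjusted p = 2.2e-06). Syncrip, an hnRNP-like protein, had 0.441 and 1.67 TPM in the oocyte libraries, 1.59 and 0.806 at 1-cell, 266 and 250.3 at 4-cell and 309 and 222 at 8-cell (log2 change 6.99 ± 0.41, adjusted p = 1.4e-06). Srsf4 and Raly were the members that were lower, from between 32.5 and 70.6 to between 8.17 and 16.6 TPM and from between 45.5 and 142 to between 7.19 and 23.6 TPM (log2 changes -1.91 and -2.21).

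The transcription machinery was called in both directions. Of 32 tested of 33 RNA polymerase II subunits and general factors 19 were higher and 3 lower, against 49.8% and 20.7% of all genes. Another 10 were not called, and the median was 1.83 (0.66 relative to all genes). Polr2k, a small subunit shared by the 3 polymerases of the nucleus, had 9.22 and 0.992 TPM in the oocyte libraries, 5.15 and 5.11 at 1-cell, 967 and 725 at 4-cell and 722 and 100.2 at 8-cell (log2 change 6.50 ± 0.78, adjusted p = 4.7e-05). Polr2c, a subunit of the polymerase II core, went the other way with 5359 and 3963 TPM in the oocyte libraries, 1909.5 and 1577 at 1-cell, 329.5 and 264 at 4-cell and 219 and 340.4 at 8-cell (log2 change -3.31 ± 0.49, adjusted p = 0.00016). Gtf2b, the factor TFIIB, fell from between 71.7 and 133 TPM to between 15.5 and 19.5 TPM (log2 change -2.47 ± 0.41, adjusted p = 0.00035), and Tbp was not called. Supt4a, an elongation factor subunit, rose from between 1.05 and 35.8 TPM to between 449.7 and 784 TPM (log2 change 6.12 ± 0.77, adjusted p = 6.2e-05).

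Genes of oxidative phosphorylation were mostly higher. Of 75 subunits of the respiratory chain and ATP synthase 66 were higher and 2 lower, against 49.8% and 20.7% of all genes. The median was 4.04. Atp5j, a subunit of ATP synthase, had 1.59 and 1.51 TPM in the oocyte libraries, 3.13 and 7.89 at 1-cell, 724 and 569.8 at 4-cell and 1095 and 652 at 8-cell (log2 change 7.55 ± 0.52, adjusted p = 2.2e-06). The members that were lower, Ndufa10 (log2 change -1.60 ± 0.65, adjusted p = 0.0476) and Sdha (log2 change -1.54 ± 0.51, adjusted p = 0.0201), overlapped between the sides. The call of Ndufa10 was lost in 11 of the 20 other ways of running the comparison, with the replicate block (adjusted p = 0.0511), with no filter, with 12 libraries, without the 1-cell or the 4-cell libraries and without oocyte replicate 2, either 1-cell library, either 4-cell library or 8-cell replicate 1 (highest adjusted p = 0.311, log2 change -0.96, without the 4-cell libraries). The call of Sdha was lost without either 4-cell library (adjusted p = 0.0515 and 0.0571), without both (0.130) and without the 1-cell libraries (0.0828). Of 22 tested of 25 glycolysis and pyruvate entry genes 9 were higher, 1 was lower and 12 were not called. Their median was 1.15 (-0.02 relative to all genes), and over all genes 49.8% were higher and 20.7% lower.

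Ldhb, the subunit of the oocyte, had 5008 and 1066 TPM in the oocyte libraries, 5378 and 3081 at 1-cell, 94.9 and 93.1 at 4-cell and 4.27 and 12.8 at 8-cell (log2 change -6.75 ± 0.97, adjusted p = 0.00014). Ldha went from between 0.876 and 3.45 TPM to between 4.75 and 11.7 TPM (log2 change 1.82 ± 0.42, adjusted p = 0.00297), and its call was lost with quantile normalisation (0.44, adjusted p = 0.325). Mpc2, a subunit of the mitochondrial pyruvate carrier, had 8.08 and 10.0 TPM in the oocyte libraries, 19.6 and 15.9 at 1-cell, 1021 and 608 at 4-cell and 746 and 875 at 8-cell (log2 change 5.87 ± 0.45, adjusted p = 3.4e-06), while its partner Mpc1 was not called. Slc2a3, a glucose transporter, rose from between 0.0875 and 1.16 TPM to between 10.3 and 21.0 TPM (log2 change 3.30 ± 0.39, adjusted p = 4.3e-05), and Slc2a1 was not called. Gapdh had 4.18 and 26.0 TPM in the oocyte libraries, 18.0 and 5.29 at 1-cell, 27.3 and 29.1 at 4-cell and 10.9 and 30.7 at 8-cell and was not called (log2 change 1.07 ± 0.63, adjusted p = 0.148), except with array weights and without oocyte replicate 2, where it was higher.

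Of 38 tested of 40 DNA replication factors 19 were higher and 4 lower, against 49.8% and 20.7% of all genes. Another 15 were not called, and the median was 0.99 (-0.18 relative to all genes). Pole, the catalytic subunit of polymerase epsilon, had 0.0533 and 0.177 TPM in the oocyte libraries, 0.643 and 0.868 at 1-cell, 40.5 and 42.5 at 4-cell and 18.4 and 20.0 at 8-cell (log2 change 4.39 ± 0.43, adjusted p = 1.3e-05). Rfc2, a subunit of the clamp loader, went from between 0.585 and 5.30 TPM to between 35.7 and 88.3 TPM (log2 change 4.37 ± 0.55, adjusted p = 6.2e-05), and Mcm3, of the replicative helicase, from between 2.11 and 8.44 to between 24.7 and 31.8 TPM (log2 change 2.71 ± 0.45, adjusted p = 0.0004). Orc5, of the origin recognition complex, and Rpa1, which binds single-stranded DNA, fell from between 111 and 254 TPM to between 23.0 and 28.4 TPM and from between 25.7 and 67.1 TPM to between 7.38 and 10.8 TPM (log2 changes -2.67 and -2.09). The clamp Pcna was not called, with 97.2 to 301 TPM on the maternal side and 80.7 to 141 TPM at cleavage.

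Of 19 tested of 23 cyclins, cyclin-dependent kinases and inhibitors 10 were higher and 2 lower, against 49.8% and 20.7% of all genes. Another 7 were not called, and the median was 1.55 (0.38 relative to all genes). Cdk2 went from between 0.735 and 7.22 TPM to between 45.6 and 125 TPM (log2 change 4.59 ± 0.58, adjusted p = 6.3e-05) and Cdk4 from between 0.874 and 3.64 TPM to between 111 and 177 TPM (log2 change 5.58 ± 0.45, adjusted p = 4.4e-06). The inhibitor Cdkn1a, also known as p21, had 1.48 and 7.45 TPM in the oocyte libraries, 16.4 and 1.78 at 1-cell, 267 and 418 at 4-cell and 811 and 1011 at 8-cell (log2 change 6.61 ± 0.72, adjusted p = 2.5e-05), and the 8-cell libraries were the highest.

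Of 25 tested of 30 genes known from the 2-cell embryo 13 were higher and 4 lower, against 49.8% and 20.7% of all genes. Another 8 were not called, and the median was 1.28 (0.11 relative to all genes). The OBOX homeobox family was divided by its members. Obox2 had 2353 and 487 TPM in the oocyte libraries, 469.9 and 518 at 1-cell, 7.58 and 5.22 at 4-cell and 0.572 and 0.0348 at 8-cell (log2 change -7.90 ± 0.80, adjusted p = 1.7e-05) and Obox1 went from between 382 and 1715 TPM to between 0.222 and 8.40 TPM (log2 change -7.80 ± 0.77, adjusted p = 1.3e-05). Obox6 had 0.0360 and 0.0448 TPM in the oocyte libraries, 1.08 and 0.107 at 1-cell, 1210.4 and 1226 at 4-cell and 341 and 209 at 8-cell (log2 change 8.83 ± 0.64, adjusted p = 2.8e-06). Reads of Obox1, Obox2 and Obox5 are hard to separate, so the split among those is uncertain. The transient activators of the 2-cell stage were low on both sides. Duxf3, also known as Dux, had at most 1.46 TPM in any of the libraries and Zscan4c at most 2.39 TPM, and neither was called. With quantile normalisation both were called lower (log2 changes -1.01 and -0.72, adjusted p = 0.0193 and 0.0387 in limma), for Zscan4c against 0.45 as deposited. Zscan4c was called higher without the 8-cell libraries or without 8-cell replicate 2.

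Of 28 tested of 34 pluripotency and lineage transcription factors 18 were higher and 0 lower in limma (0 lower also unadjusted). Over all genes 49.8% were higher and 20.7% lower. The median was 3.75 (2.58 relative to all genes), and with quantile normalisation 15 were higher and 2 lower. Klf5, needed in the early lineages, had 0.234 and 0.130 TPM in the oocyte libraries, 0.399 and 0.242 at 1-cell, 116 and 94.6 at 4-cell and 159 and 142 at 8-cell (log2 change 6.67 ± 0.38, adjusted p = 1.3e-06). Tead4, a regulator of the trophectoderm, had 0 and 0 TPM in the oocyte libraries, 0.119 and 0.164 at 1-cell, 63.4 and 58.2 at 4-cell and 34.4 and 56.7 at 8-cell (log2 change 5.63 ± 0.37, adjusted p = 1.9e-06). Dppa4 had 0.243 and 0.118 TPM in the oocyte libraries, 1.35 and 0.598 at 1-cell, 393 and 472 at 4-cell and 215 and 206 at 8-cell (log2 change 7.64 ± 0.47, adjusted p = 1.6e-06), and Sox15 went from between 0.980 and 7.74 TPM to between 452 and 635 TPM (log2 change 7.26 ± 0.54, adjusted p = 3e-06). Rises also included Nr5a2, from between 1.84 and 6.81 to between 54.5 and 178 TPM (log2 change 4.72 ± 0.55, adjusted p = 3.7e-05), and Nanog, from between 0.0594 and 0.891 to between 9.22 and 33.2 TPM (log2 change 3.67 ± 0.47, adjusted p = 6.9e-05).

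Pou5f1 and Sox2 were not called. Pou5f1, also known as Oct4, had 37.1 and 104 TPM in the oocyte libraries, 107 and 46.8 at 1-cell, 32.1 and 35.0 at 4-cell and 69.6 and 179.7 at 8-cell (log2 change -0.11 ± 0.64, adjusted p = 0.883). The 4-cell libraries were below all maternal ones and 8-cell replicate 2 above all of them. Sox2 had 0.169 and 1.02 TPM in the oocyte libraries, 2.45 and 0.960 at 1-cell, 0.236 and 0.357 at 4-cell and 4.05 and 4.54 at 8-cell (log2 change 0.39 ± 0.56, adjusted p = 0.546, -0.60 with quantile normalisation), and was called higher without the 4-cell libraries. Cdx2 had at most 4.89 TPM in any library, and Gata3, Sall4, Esrrb and Klf17 overlapped between the sides.

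Of 34 tested of 38 genes of the cytoskeleton, keratins and junctions 16 were higher and 5 lower, against 49.8% and 20.7% of all genes. Another 13 were not called, and the median of 0.92 (-0.25 relative to all genes) turned to -0.06 with quantile normalisation. F11r, also known as JAM-A, had 0.348 and 0.254 TPM in the oocyte libraries, 0.520 and 0.557 at 1-cell, 177 and 119 at 4-cell and 89.3 and 205 at 8-cell (log2 change 6.64 ± 0.42, adjusted p = 1.6e-06). Prkcz, a polarity kinase, went from between 0.145 and 0.438 TPM to between 46.5 and 154 TPM (log2 change 5.99 ± 0.47, adjusted p = 3.8e-06) and the claudin Cldn7 from between 2.02 and 2.68 TPM to between 77.9 and 210.3 TPM (log2 change 5.18 ± 0.45, adjusted p = 6.1e-06). Actb had 23.1 and 22.5 TPM in the oocyte libraries, 70.2 and 23.4 at 1-cell, 275 and 413 at 4-cell and 1739 and 1168 at 8-cell (log2 change 4.46 ± 0.67, adjusted p = 0.0002). Pard3, the polarity scaffold, and Lamb1, a laminin chain, fell from between 26.1 and 163 TPM to between 3.07 and 13.3 TPM and from between 54.1 and 354 TPM to between 2.93 and 10.2 TPM (log2 changes -3.39 and -4.57). The adhesion genes Cdh1, Ctnna1 and Ctnnb1 were not called.

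Markers of cells that could accompany oocytes and embryos were also counted. Of 24 cumulus and granulosa cell markers 16, among them Foxl2, Fshr, Cyp19a1, Has2 and Ptx3, had no transcript in the annotation and 3 were tested, and the summed level of the list was 24.2 to 130 TPM in maternal and 139 to 398 TPM in cleavage libraries. Gja1, the gap junction protein connexin 43, which blastomeres also make, rose from between 0.0993 and 0.464 TPM to between 93.0 and 364 TPM (log2 change 7.13 ± 0.48, adjusted p = 2e-06) and Amhr2 from between 0 and 0.206 TPM to between 23.0 and 107 TPM (log2 change 5.62 ± 0.54, adjusted p = 1.1e-05), and Cited2 fell (log2 change -3.21 ± 0.75, adjusted p = 0.00332). Of 24 sperm and spermatid markers 22 had a transcript and 9 were tested, and the summed level of the list lay between 20.5 and 73.2 TPM in the 8 libraries, with 2 higher, 1 lower and 6 not called (with quantile normalisation 0 higher and 3 lower). Prm1, a protamine, was called higher but had at most 5.96 TPM in any library and overlapped between the sides. Its call was lost in several settings, among them quantile normalisation (log2 change 0.25, adjusted p = 0.688 in limma). The part of such cells in the differences above was not tested.

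Among unannotated loci 1900 of 3335 (56.97%) were higher and 514 (15.4%) lower, against 47.3% and 22.5% of annotated genes. XLOC_010914 (chr5:89616406-89653274) had 978 and 987 TPM in the oocyte libraries, 1155 and 1549 at 1-cell, 4.90 and 8.33 at 4-cell and 0.0581 and 0.192 at 8-cell (log2 change -8.63 ± 0.72, adjusted p = 5.4e-06). XLOC_006435 (chr17:24544416-24545010) had 0 and 0 TPM in the oocyte libraries, 0.260 and 0 at 1-cell, 753 and 824 at 4-cell and 124 and 139.9 at 8-cell (log2 change 8.25 ± 0.68, adjusted p = 4.7e-06). XLOC_004803 (chr14:73953921-73954501) was listed at 0 in the 4 maternal libraries and had 3539.8 and 4145 TPM at 4-cell and 2561 and 60.8 TPM at 8-cell. At that locus the 8-cell libraries differed from each other more than the 4-cell libraries did.

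Long intergenic RNAs were lower more often than they were higher. Of 303 lincRNA genes 161 (53.1%) were lower and 85 (28.1%) higher, with a median of -1.43, whereas of 8845 protein-coding genes 1897 (21.4%) were lower and 4208 (47.6%) higher. Processed pseudogenes were mostly higher (154 of 230, 67.0%). Of 136 antisense genes 52 were higher and 47 lower, and since the counting is not stated to use strand, reads of an antisense gene and its partner cannot be told apart. Transcripts of genes called higher and lower had similar structure, with a median length of 1395 and 1329 bases and a median of 5 and 4 exons.

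Isoform use within a gene was compared as the share of each transcript in its gene's TPM. A form can gain share while its own TPM stay level or fall, where the other forms fall more. For genes of at least 10 TPM in all 8 libraries, 2972 isoforms of 1296 genes were tested on the log2 ratio of the isoform to the rest of its gene, and an isoform was called when it also moved by over 10 percentage points. Of these, 1058 (35.6%) were called, 543 (18.3%) with a share that was higher at cleavage and 515 (17.3%) with a lower one, in 531 of the 1296 genes (41.0%). The median shift of the called isoforms was 26.3 points, and 138 shifted by over 50 points. The sides did not overlap in 964 of the 1058, against 1243 (41.8%) of all 2972. The isoform with the largest mean share was a different one on the other side in 306 genes (23.6%), and in 181 (14.0%) both of these isoforms were called.

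Of the 531 genes with a called isoform 287 (54.0%) were not called at the level of the gene, and of all 1296 genes 687 (53.0%) were not. In 438 genes at least 1 isoform gained and 1 lost share. For the isoform that gained most and the one that lost most, the start sites lay over 300 bases apart in 241 genes (55.0%).

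**Figure D4:**
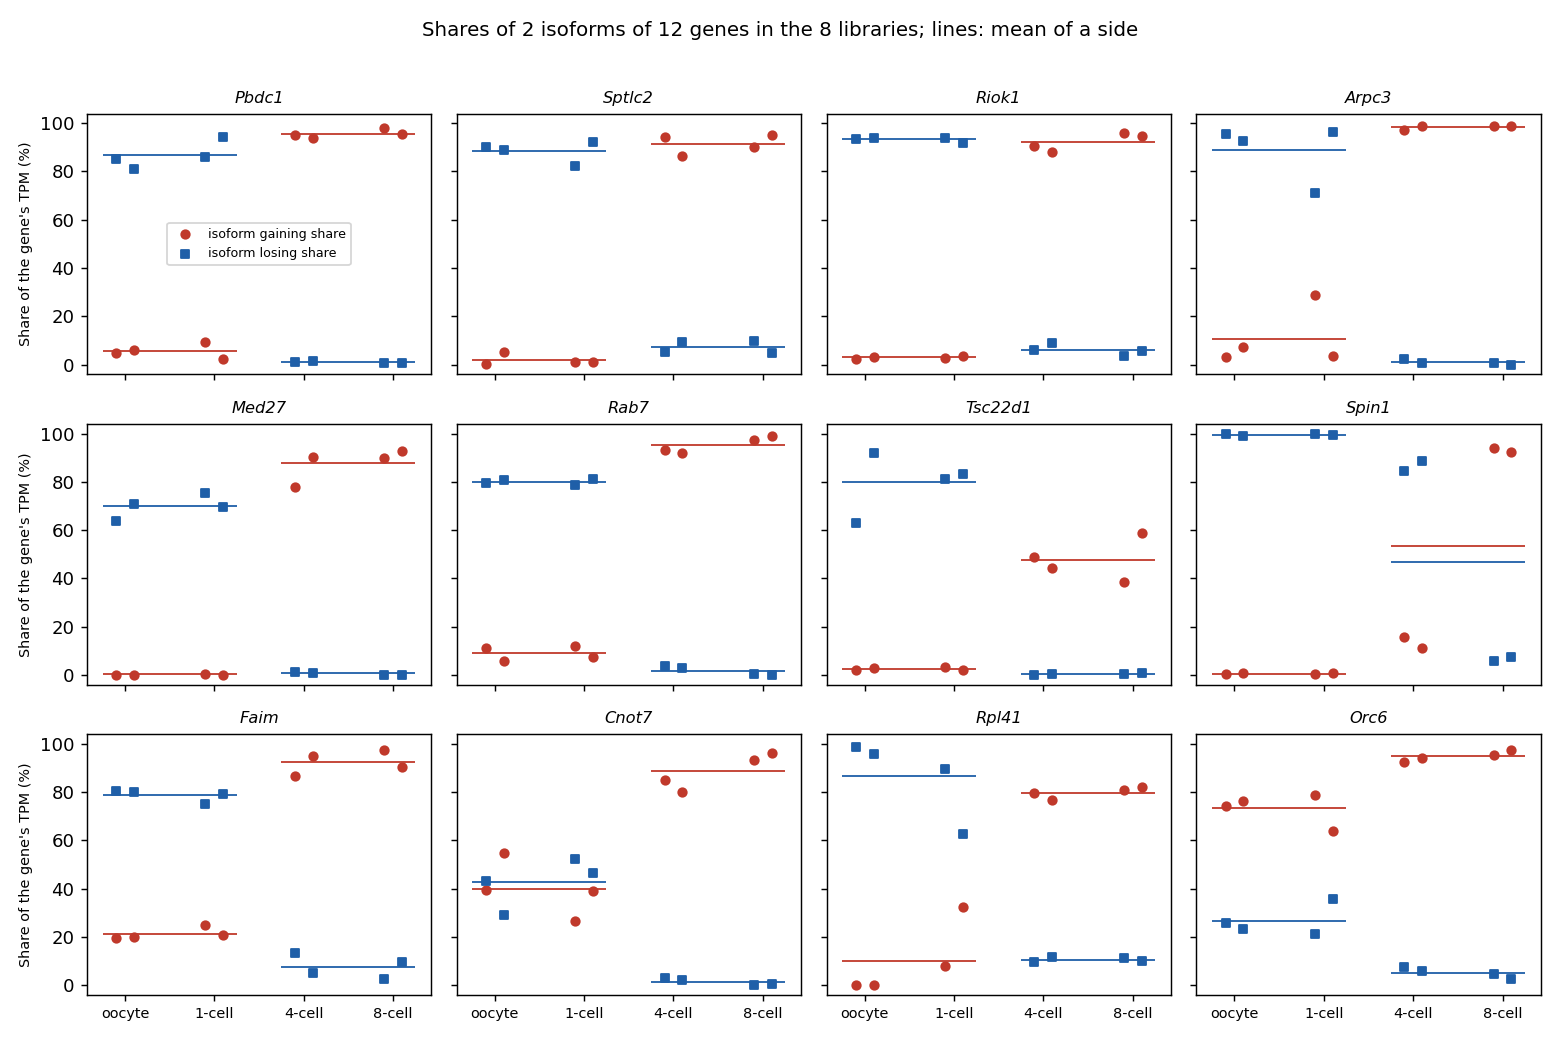
Share of the gene's TPM (y axis, percent) of the isoform that gained most and the isoform that lost most in 12 genes, by library. Lines are the mean of the 4 libraries of a side. The lines cross in Pbdc1, Sptlc2, Riok1, Arpc3 and Rab7, and the points of Spin1 split between 4-cell and 8-cell.

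The largest exchange of all was in Pbdc1, a gene of the X chromosome. There Pbdc1-201 (chrX:105079715-105083502), with 594 coding bases, made up 4.87 and 5.97% in the oocyte libraries, 9.31 and 2.45% at 1-cell, 95.0 and 93.9% at 4-cell and 97.8 and 95.4% at 8-cell (adjusted p = 3.4e-06). Pbdc1-202, with 411 coding bases, made up 85.3 and 81.0% in the oocyte libraries, 85.9 and 94.4% at 1-cell, 1.16 and 1.41% at 4-cell and 0.513 and 0.651% at 8-cell. The forms start within 31 bases of each other and differ in their last exon, and the gene as a whole rose by 4.65 log2 units.

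Sptlc2, a subunit of the enzyme that begins sphingolipid synthesis, exchanged forms while the gene was not called (log2 change 0.12, adjusted p = 0.88 in limma). The full Sptlc2-201 of 12 exons (chr12:87309633-87388323, 1680 coding bases) made up 0.222 and 5.14% in the oocyte libraries, 0.899 and 1.25% at 1-cell, 94.2 and 86.5% at 4-cell and 90.3 and 95.1% at 8-cell (adjusted p = 5.4e-05). A form of 4 exons that starts 59721 bases farther in (chr12:87309633-87328602) made up 90.2 and 89.1% in the oocyte libraries, 82.2 and 92.4% at 1-cell, 5.09 and 9.50% at 4-cell and 9.71 and 4.92% at 8-cell. No maternal library had more than 5.14% of the annotated full-length form.

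Riok1, an atypical kinase of ribosome maturation, fell by 4.05 log2 units as a gene and also changed form. Riok1-201 of 17 exons (chr13:38037218-38061429) made up 2.29 and 3.26% in the oocyte libraries, 2.89 and 3.69% at 1-cell, 90.7 and 88.0% at 4-cell and 95.8 and 94.5% at 8-cell (adjusted p = 2.5e-06), and a form with 18 exons made up 91.8 to 93.8% on the maternal side and 3.64 to 8.90% at cleavage. In TPM, Riok1-201 had 3.60 to 18.6 on the maternal side and 14.5 to 27.9 at cleavage, which overlap. The form with 18 exons fell from between 147 and 569 to between 0.622 and 2.08 TPM. Med27, a Mediator subunit, exchanged its start. Med27-201 of 8 exons (chr2:29346786-29524789) went from between 0.0722 and 0.422% to between 78.0 and 93.0%, and a form that starts 31013 bases downstream from between 63.6 and 75.4% to between 0 and 1.22% (adjusted p = 3.4e-06 for the gaining form).

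Arpc3, a subunit of the actin-nucleating Arp2/3 complex, was not called as a gene (log2 change -0.03). Arpc3-202 (chr5:122391816-122406178, 534 coding bases) made up 3.24 and 7.08% in the oocyte libraries, 29.0 and 3.53% at 1-cell, 97.2 and 98.7% at 4-cell and 98.8 and 99.0% at 8-cell (adjusted p = 4.8e-05). Arpc3-204, which starts 8492 bases downstream and has 483 coding bases, made up 95.4 and 92.7% in the oocyte libraries, 71.0 and 96.2% at 1-cell, 2.14 and 0.844% at 4-cell and 0.512 and 0% at 8-cell. In 1-cell replicate 1 the cleavage form was already at 29.0%, above the other maternal libraries.

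Rab7, a GTPase of late endosomes, changed its start and not the length of its coding sequence. Rab7-205 (chr6:87999107-88045286) went from between 5.69 and 11.8% to between 92.0 and 98.9% (adjusted p = 3.9e-05) and Rab7-201 (chr6:87999107-88019783) from between 78.6 and 81.2% to between 0.146 and 3.65%. Both have 621 coding bases, and their starts lie 25503 bases apart. Mkln1 exchanged a form of 15 exons for Mkln1-201 of 18 exons, from between 0.617 and 9.60% to between 70.2 and 100% (adjusted p = 0.0003), with starts 31846 bases apart. Fbxw18, Abhd6, Lpar1, Setd4 and Tsc22d1 completed the 12 largest exchanges. The gaining form of Abhd6 went from between 0 and 1.54% to between 71.9 and 95.8%, and that of Setd4 from between 11.4 and 19.3% to between 92.6 and 97.9%. Fbxw18 lies among near-identical genes, and the gaining form of Lpar1 has a single exon.

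Where an exchange used different promoters, the sequence at both starts could be read. In 4 genes both isoforms began within 100 bases of different RefSeq starts of the gene, more than 1000 bases apart. These were Tsc22d1, Spin1, Anapc15 and Hmgxb4, of which the last 3 were chosen after their values were seen. The windows below are from RefSeq (GRCm38.p6), run 5′ to 3′ from 250 bases before to 50 after the start on the plus strand, and are shown because the pairs differ in CpG dinucleotides, which are in capitals.
Tsc22d1 gaining start, chr14:76504260-76504559: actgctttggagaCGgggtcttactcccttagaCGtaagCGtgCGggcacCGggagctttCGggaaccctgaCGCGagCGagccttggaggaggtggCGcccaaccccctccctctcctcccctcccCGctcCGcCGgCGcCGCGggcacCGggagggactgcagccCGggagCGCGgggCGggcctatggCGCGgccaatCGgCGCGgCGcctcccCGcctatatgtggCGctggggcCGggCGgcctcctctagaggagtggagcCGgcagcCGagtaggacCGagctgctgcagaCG
Tsc22d1 losing start, chr14:76488186-76488485: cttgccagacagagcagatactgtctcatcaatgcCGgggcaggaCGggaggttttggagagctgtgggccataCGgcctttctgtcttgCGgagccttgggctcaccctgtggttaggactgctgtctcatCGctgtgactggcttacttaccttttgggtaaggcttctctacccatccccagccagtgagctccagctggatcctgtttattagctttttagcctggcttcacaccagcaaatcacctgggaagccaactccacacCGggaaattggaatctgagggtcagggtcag
Spin1 gaining start, chr13:51100630-51100929: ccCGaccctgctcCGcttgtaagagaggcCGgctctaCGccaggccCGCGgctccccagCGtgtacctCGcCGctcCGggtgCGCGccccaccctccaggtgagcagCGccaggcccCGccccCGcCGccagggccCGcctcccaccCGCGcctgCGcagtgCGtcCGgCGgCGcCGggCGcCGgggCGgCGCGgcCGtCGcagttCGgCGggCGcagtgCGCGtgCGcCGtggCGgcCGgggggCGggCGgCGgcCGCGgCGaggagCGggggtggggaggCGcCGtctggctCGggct
Spin1 losing start, chr13:51132547-51132846: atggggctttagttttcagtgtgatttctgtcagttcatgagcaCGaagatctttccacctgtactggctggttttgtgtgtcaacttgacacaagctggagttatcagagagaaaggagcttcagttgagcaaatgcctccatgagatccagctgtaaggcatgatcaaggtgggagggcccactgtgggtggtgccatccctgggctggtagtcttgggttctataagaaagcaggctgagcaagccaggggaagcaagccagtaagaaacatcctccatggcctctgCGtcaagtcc
Hmgxb4 gaining start, chr8:75015972-75016271: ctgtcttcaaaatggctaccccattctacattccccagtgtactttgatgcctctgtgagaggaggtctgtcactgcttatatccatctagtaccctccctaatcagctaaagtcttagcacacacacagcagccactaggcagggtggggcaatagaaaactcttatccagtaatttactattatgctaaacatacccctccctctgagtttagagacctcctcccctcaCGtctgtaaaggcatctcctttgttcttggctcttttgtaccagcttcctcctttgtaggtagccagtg
Hmgxb4 losing start, chr8:74993400-74993699: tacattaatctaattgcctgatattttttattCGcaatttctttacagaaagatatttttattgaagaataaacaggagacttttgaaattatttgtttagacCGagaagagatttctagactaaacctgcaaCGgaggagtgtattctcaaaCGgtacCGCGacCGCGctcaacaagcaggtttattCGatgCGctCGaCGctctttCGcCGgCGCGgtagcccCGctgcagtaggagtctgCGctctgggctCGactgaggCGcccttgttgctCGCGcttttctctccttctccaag

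The Tsc22d1 start that gained share held 35 CpG (observed over expected 0.884) and the start that lost share 6 (0.268). For Spin1 the numbers were 51 (0.995) and 2 (0.107), and for Anapc15 21 (0.909) and 4 (0.278). Hmgxb4 ran the other way, with 1 CpG (0.0651) at the gaining start and 22 (1.39) at the losing start. Of 32851 RefSeq windows of this length 35.8% had a ratio above 0.6, and 4 pairs carry no test. RefSeq windows were matched to 50.6% of the annotated genes tested (54.6% of those higher and 43.5% of those lower), too few to compare promoters between genes that rose and fell.

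Tsc22d1, a leucine zipper regulator of transcription, fell by 4.96 log2 units as a gene. Tsc22d1-201 (429 coding bases) made up 2.14 and 2.77% in the oocyte libraries, 3.18 and 2.02% at 1-cell, 48.8 and 44.3% at 4-cell and 38.4 and 58.6% at 8-cell (adjusted p = 2.6e-05). Tsc22d1-203 (321 coding bases), which starts 16088 bases upstream, made up 62.9 and 91.9% in the oocyte libraries, 81.0 and 83.3% at 1-cell, 0 and 0.267% at 4-cell and 0.281 and 0.878% at 8-cell. The form from the CpG-rich start was the lesser of the pair in every maternal library and the greater in every cleavage library. In TPM that form did not rise, with 23.8 to 61.8 on the maternal side and 13.1 to 25.6 at cleavage. The other form went from between 699 and 1572 TPM to at most 0.368 TPM.

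Spin1, a reader of histone methylation that is abundant in oocytes, fell by 6.74 log2 units, and its shares changed most between 4-cell and 8-cell. The form from the CpG-poor start made up 99.7 and 99.0% in the oocyte libraries, 99.6 and 99.4% at 1-cell, 84.5 and 88.7% at 4-cell and 5.92 and 7.49% at 8-cell, and the form from the CpG-rich start 31906 bases upstream made up 0.287 and 0.972% in the oocyte libraries, 0.362 and 0.592% at 1-cell, 15.5 and 11.3% at 4-cell and 94.1 and 92.5% at 8-cell (adjusted p = 0.00195). The mean of the cleavage side hides this split. In TPM the form from the CpG-rich start also fell, from between 17.6 and 23.8 on the maternal side. It had 16.9 and 13.9 TPM at 4-cell and 11.7 and 9.83 at 8-cell. The form from the CpG-poor start had 1796 to 7508 TPM on the maternal side, 92.2 and 110 at 4-cell and 0.734 and 0.796 at 8-cell. In Hmgxb4 the shifts were smaller, from between 14.9 and 24.6% to between 34.8 and 50.0% for the gaining and from between 12.4 and 21.2% to between 1.63 and 5.79% for the losing form. In Anapc15 the gaining form went from between 29.6 and 62.3% to between 71.2 and 83.1% (adjusted p = 0.0102).

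Exchanges of a single internal exon changed the coding sequence of 2 genes without moving the start by more than 18 bases. They are shown from GENCODE vM21 transcripts (mm10), Faim with its start codon in capitals, and Faim was chosen after its values were seen.
Faim exon of the losing form, coding part, chr9:98990928-98990971: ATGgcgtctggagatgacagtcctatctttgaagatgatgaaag
Orc6 exon of the gaining form, chr8:85301109-85301238: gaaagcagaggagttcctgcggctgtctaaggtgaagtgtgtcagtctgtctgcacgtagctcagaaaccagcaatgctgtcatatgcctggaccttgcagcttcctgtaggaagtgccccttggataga

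Faim, an inhibitor of FAS-mediated apoptosis, uses this exon of 57 bases in Faim-202 (603 coding bases) and skips it in Faim-201 (537 coding bases). Faim-202 made up 80.6 and 80.2% in the oocyte libraries, 75.1 and 79.1% at 1-cell, 13.2 and 5.00% at 4-cell and 2.65 and 9.68% at 8-cell and Faim-201 the rest (adjusted p = 5.4e-05). The gene as a whole was not called (log2 change -0.35). Orc6, a subunit of the origin recognition complex, includes its exon of 130 bases in Orc6-201 (786 coding bases) and skips it in Orc6-202 (558 coding bases). Orc6-201 made up 74.1 and 76.5% in the oocyte libraries, 79.0 and 64.1% at 1-cell, 92.4 and 94.3% at 4-cell and 95.4 and 97.6% at 8-cell (adjusted p = 0.00092), and the longer form was the larger one on both sides. Both forms fell in TPM, Orc6-201 from between 188 and 287 to between 57.4 and 144. Orc6-202 went from between 61.4 and 105 to between 1.40 and 11.9 TPM.

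Isoforms shifted in genes of the lists above even where the gene was not called. Padi6 was not called as a gene, but Padi6-201 of 16 exons (chr4:140727355-140742643, 2046 coding bases) made up 100 and 100% in the oocyte libraries, 81.2 and 99.3% at 1-cell, 23.7 and 22.8% at 4-cell and 16.3 and 12.0% at 8-cell (adjusted p = 0.00027), and a form of 8 exons that starts 9562 bases downstream took the rest. In Ccnt2, cyclin T2 of the elongation kinase, Ccnt2-201 of 9 exons (2169 coding bases) went from between 91.7 and 97.4% to between 21.2 and 39.2% (adjusted p = 4.2e-05) and Ccnt2-206 of 5 exons, annotated without a coding sequence, from between 2.59 and 8.29% to between 60.8 and 78.8%. In Dnmt3a a form of 18 exons (Dnmt3a-205) went from between 80.5 and 100% to between 23.5 and 49.0% and a form of 12 exons from between 0 and 19.5% to between 51.0 and 76.5% (adjusted p = 0.00564). In each of these the form with more exons had the larger share on the maternal side.

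The reverse held in Ddx18, a helicase of ribosome biogenesis. Ddx18-201 of 13 exons went from between 16.1 and 61.1% to between 99.6 and 100% (adjusted p = 5.5e-05) and a form of 2 exons was lost. In nucleolin (Ncl) and Eif3c the long form was highest at 4-cell. Ncl-201 of 14 exons made up 35.3 and 26.0% in the oocyte libraries, 23.8 and 31.1% at 1-cell, 99.4 and 100% at 4-cell and 54.8 and 52.8% at 8-cell (adjusted p = 0.0436), and Eif3c-201 of 21 exons made up 6.03 and 5.37% in the oocyte libraries, 10.96 and 16.7% at 1-cell, 99.7 and 100% at 4-cell and 32.4 and 52.1% at 8-cell (adjusted p = 0.0269). The 4-cell libraries of both genes stood near 100% and the 8-cell libraries fell between. The call of Ncl was lost with a pseudocount of 0.1, with the replicate block and when any one of the oocyte, 1-cell or 4-cell libraries was left out, and that of Eif3c without either oocyte library, 1-cell replicate 1 or either 4-cell library.

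Rpl41 and Rplp0, which rose as genes, also changed their starts. In Rpl41 a form that begins 2640 bases upstream (chr10:128548117-128551927) made up 0 and 0% in the oocyte libraries, 8.05 and 32.2% at 1-cell, 79.5 and 76.7% at 4-cell and 80.8 and 82.3% at 8-cell (adjusted p = 0.00152), and the annotated Rpl41-201 (chr10:128548117-128549287) made up 98.8 and 95.9% in the oocyte libraries, 89.7 and 62.7% at 1-cell, 9.49 and 11.9% at 4-cell and 11.1 and 10.0% at 8-cell. In Rplp0 a form from 2198 bases upstream went from between 0 and 3.89% to between 45.9 and 77.3% (adjusted p = 0.00027). In H2afz, H2afz-201 (384 coding bases) went from between 67.1 and 80.0% to between 91.8 and 96.6% (adjusted p = 0.00088), and H2afz-207, from a start 307 bases downstream, from between 20.0 and 31.9% to between 1.56 and 2.75%. The maternal means behind these shares were 47.2 TPM for Rpl41, 55.2 TPM for Rplp0 and 72.2 TPM for H2afz.

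Poly(A) and decay factors were among the shifting genes as well. In Pabpn1, the nuclear poly(A)-binding protein, a form of 7 exons went from between 0 and 3.96% to between 51.3 and 80.7% and a form of 8 exons, starting 1647 bases downstream, from between 95.2 and 99.9% to between 9.90 and 42.2% (adjusted p = 0.00023). Both Pabpn1 forms also overlap another gene, so their assignment to Pabpn1 is uncertain. In Cnot7 the maternal share was divided between Cnot7-201 (26.8 to 54.7%) and Cnot7-203 (29.0 to 52.4%), which start 4093 bases apart and have the same 855 coding bases. Cnot7-201 had 79.9 to 96.1% at cleavage, although its TPM fell from between 207 and 470 to between 57.6 and 128. Cnot7-203 fell to 3.08 and 2.21% at 4-cell and 0.156 and 0.324% at 8-cell (adjusted p = 8.6e-05). In Khdc3, Khdc3-201 (1320 coding bases) went from between 1.89 and 5.71% to between 46.6 and 55.8% (adjusted p = 0.00024) and Khdc3-204 (1038 coding bases) from between 55.6 and 86.4% to between 20.7 and 22.9%.

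Long reads of the same stages give another view of these isoforms, with 1 pool per stage and so no test. The pools mix cDNA of the same batches as the short-read libraries and are not independent of them. Of 484 multi-exon isoforms that gained share, 21.1% and 17.6% were found in the oocyte and 1-cell pools and 55.8% and 47.5% in the 4-cell and 8-cell pools. Of 482 that lost share the figures were 53.7%, 46.7%, 34.0% and 33.8%. Over all 2657 multi-exon isoforms tested they were 37.1%, 32.3%, 45.2% and 43.5%. Gaining isoforms were thus seen more often in the pools of the side where their share was higher, and losing isoforms likewise.

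**Figure D5:**
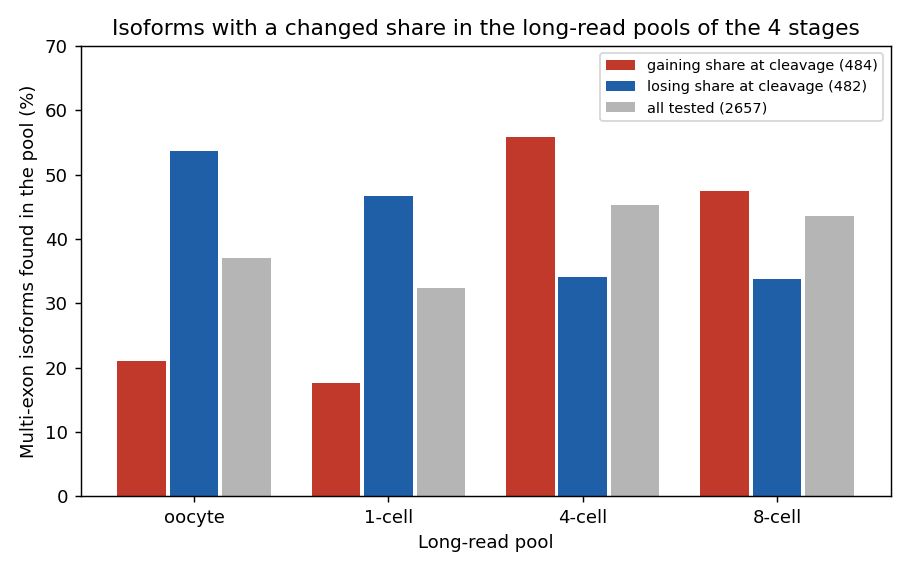
Share (y axis, percent) of multi-exon isoforms found in the long-read pool of each stage (x axis), for the 484 that gained share at cleavage, the 482 that lost share and all 2657 tested. Bars of gaining isoforms stand at 55.8% and 47.5% in the 4-cell and 8-cell pools and those of losing isoforms at 53.7% and 46.7% in the oocyte and 1-cell pools.

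An intron chain of GENCODE was matched by 49.0% of the gaining, 51.0% of the losing and 50.2% of all isoforms tested, and a start within 300 bases of a GENCODE start by 76.4%, 84.9% and 81.3%. Single-exon isoforms made up 10.9% of the gaining and 6.41% of the losing isoforms, against 10.6% of all. A share in short reads depends on how the quantification divides reads between overlapping forms, and the long-read pools show presence only.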

How the data were processed

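Short-read Smart-seq2 libraries of 4 stages were used. The authors quantified them with salmon as TPM over 22612 transcripts merged from long-read sequencing of the stages, and deposited these TPM with the mm10 exon coordinates of the merged annotation and of each long-read pool. The submitters' processing notes also name GSNAP, STAR and Cufflinks. Counting is not stated to use strand. TPM give no depth, so no interval for counting error was computed. Deposited TPM on stage-specific annotations and libraries of other stages did not enter the main comparison.

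Transcripts were assigned to GENCODE vM21 genes by same-strand exon overlap, and 954 (5.20%) that overlapped several genes went to the gene with the larger overlap. Gene TPM were tested with limma 3.58.1 (R 4.3.3) on log2(TPM + 1) with the side as the only term over the 8 libraries, after a filter of 1 TPM in at least 2 libraries. Isoforms were tested with limma on log2((isoform + 1)/(rest of gene + 1)) for genes of at least 10 TPM in all 8 libraries and isoforms with a mean share of at least 5%. The threshold was an adjusted p of 0.05 and, for isoforms, a difference over 10 points. Tables were made in Python 3.11.15 with numpy 2.4.6 and pandas 2.3.3, and scripts were tested on simulated data. With 200 of 13098 genes changed by 1, 2 or 4 log2 units between the sides, 0, 54 and 170 were recovered. For isoforms, with 200 of 2972 changed, the numbers were 0, 82 and 181. A gene or isoform that was not called is therefore not shown to be unchanged.

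Genes were named by rule. These were the 10 largest called rises and falls among annotated genes without overlap between sides and with a mean of at least 10 TPM on the higher side, the 5 most abundant on each side, the leading and defining members of each list, the 12 largest isoform exchanges with called isoforms of list genes, and the 3 largest rises and falls of unannotated loci. The comparison, its members and the lists were chosen with earlier results of these data known. Pairing by replicate number was checked and was not supported by the libraries. Titles and file names number the 8-cell libraries differently, and the titles were followed. Alternatives were another pseudocount, filter, scaling, model term, locus assignment and library set.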

Additional observations from a re-analysis of the deposited data

Results flagged for a closer look

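Each side of each named gene or isoform, 524 in all, was searched for a library whose distance to the nearest of the other 3 exceeded, as a part of the range of the side, Dixon's 95% critical value for 4 samples. Such libraries were found in 34 sides, where chance gives about 1 in 20, or 26.2. Of the 34, 14 were in 1-cell replicate 1, 5 in 8-cell replicate 2, 4 each in 1-cell replicate 2 and 4-cell replicate 2, 3 in oocyte replicate 2, 2 in 8-cell replicate 1 and 1 each in oocyte replicate 1 and 4-cell replicate 1.

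In 1-cell replicate 1 several cleavage transcripts stood above the other maternal libraries. Actb had 70.2 TPM against 22.5 to 23.4, Aurkb 11.05 against 2.07 to 2.68 and Obox6 1.08 against 0.0360 to 0.107. XLOC_006435 had 0.260 TPM against 0 and XLOC_011742 0.0945 TPM against at most 5e-06. In the same library isoform shares lay toward the cleavage side. Arpc3 had 29.0% and 71.0% for its gaining and losing forms, where the others had 3.24% to 7.08% and 92.7% to 96.2%, Padi6 had 18.8% and 81.2% (others 0% to 0.674% and 99.3% to 100%) and Ctnna1 had 21.7% and 78.3% (others 3.10% to 3.87% and 96.1% to 96.9%). The remaining shares of that library were 26.3% for an isoform of Rpl31 (others 1.21% to 3.74%), 86.6% for Orc4 (91.2% to 91.9%) and 59.0% for Aurkc (53.7% to 54.4%). Without this library 6491 genes were called higher and 2452 lower at cleavage, against 6519 and 2707, and 516 isoforms gained and 493 lost share, against 543 and 515.

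Other maternal libraries stood apart for single genes. Obox2 had 2353 TPM in oocyte replicate 1 (others 469.9 to 518), Fbxo43 215 TPM and shares of 23.6% for Anln and 1.42% for Hnrnpf in oocyte replicate 2, and in 1-cell replicate 2 Cnot7 had 1207 TPM and isoforms of Riok1, Abhd6 and Igf2bp3 had 91.8%, 1.54% and 0.336%. At cleavage, 4-cell replicate 1 had 5.31 TPM of XLOC_000194, and 4-cell replicate 2 had 137 TPM of Hpf1 (others 257 to 283), 3282 TPM of Mt2 (2435 to 2562) and shares of 99.6% and 0.400% for the forms of Ddx18. In 8-cell replicate 1 Gapdh had 10.9 TPM and Crxos 8572 TPM. In 8-cell replicate 2 Pcna had 80.7 TPM (others 132 to 141), Polr2k 100.2 TPM (722 to 967) and XLOC_004803 60.8 TPM (2561 to 4145), and Eif5 divided as 59.1% and 40.7% between forms that had 92.8% to 93.4% and 6.01% to 6.62% elsewhere.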

How the results depend on the processing

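Of a set of 144 named genes 131 were called. Of these, 120 were called in each of the 20 other ways of running the comparison that tested them. The set includes the largest changes by rule. It leaves out some genes named above, among them Eif4e, Ldha and H3f3b, whose calls were lost in some settings. The genes lower at cleavage numbered 4107 under quantile normalisation against 2707, and the other settings kept both counts within 1.5 times, with 6143 to 6491 higher and 2327 to 2851 lower when 1 library was left out. Within the maternal side, a fit of the 4 libraries of its stages called 0 genes higher and 0 lower at 1-cell in limma (1233 and 129 at an unadjusted p under 0.05). The genes lower at 1-cell numbered 30 with a pseudocount of 0.1, 91 with quantile normalisation and 24 with a replicate block, and leaving out 1 library gave 0 to 951 higher and 1 to 147 lower. The genes higher at 8-cell than 4-cell numbered 277, 856 and 805 with a pseudocount of 0.1, quantile normalisation and a fit of 4 libraries, and those lower 1012, 785 and 2631. Leaving out 1 library gave 194 to 450 higher and 413 to 1191 lower. Isoforms gaining and losing share numbered 1060 and 1056 for genes of at least 1 TPM, and 226 and 226 for genes of at least 30 TPM, where more and fewer isoforms are tested, and leaving out 1 library gave 441 to 549 and 429 to 525. Changes not called as deposited turned sign for Duxf3 (0.24 without 1-cell, 0.15 without 8-cell), Pou5f1 (0.74 without 4-cell, -0.62 to 0.19 without 1 library), Sox2 (-0.60 under quantile normalisation, -0.040 with array weights, -0.63 without 8-cell), Ccnb1 (-0.11 without oocytes, -0.10 without 4-cell), Zscan4c (-0.72 under quantile normalisation, where it was called lower, -0.0247 without 4-cell) and Cdh1 (-0.50 under quantile normalisation). The cause was not tested. Same-numbered libraries share only a number (correlation of their deviations -0.269 to 0.165), and with the replicate block the calls were 6379 higher and 2615 lower. The study lists the read total of each library, but the deposited TPM give no reads per gene. The limit that counting sets on low genes is therefore unknown.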
